A study of Populus trichocarpa with 6 samples.

Results

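This report describes the places on chromosomes 19 and 13 of Populus trichocarpa (black cottonwood) where chromatin immunoprecipitation of a FLAG-tagged PtrVCS2 protein gave enrichment in every replicate. Overlapping peaks of the 3 deposited lists (1 bp or more in common) were joined into regions, and a region with a peak from every list is called shared. Of 4225 shared regions in the whole series, 212 met the rule. Chromosome 19 held 73 of them and chromosome 13 held 139, after leaving out a stretch of chromosome 13 from 14750000 to 14890000 that is crowded with peaks. Members were chosen by position and recurrence, so counts of shared regions describe the rule. It set no limit on fold or width, but a called and overlapping peak in every list was needed, which bears on both. Leaving out the crowded stretch also lowered the peaks of chromosome 13 in the single lists, from 271, 390 and 356 to 221, 329 and 312 in replicates 1, 2 and 3.

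The series holds 6 samples of cambium, the dividing layer under the bark from which wood and inner bark form. All come from plants overexpressing PtrVCS2 joined to 3 copies of the FLAG peptide tag. In 3 samples, chromatin immunoprecipitation (IP) was done with an antibody against FLAG, and in the other 3, input DNA, no antibody was used. The samples are numbered as replicates 1 to 3, the names of the lists mark them as biological and the input as pooled, so the 3 IP lists share a control. Nothing in the labels says whether replicates came from separate plants, so a p measures only the spread between these samples, which may be technical. As the protein is overexpressed, sites it does not occupy at native levels cannot be told apart from those it does. None of the 6 samples is an IP from plants without the tag, so enrichment that does not come from the tagged protein cannot be told apart either. The promoter driving the transgene, the number of lines, the sex of the plants and the genome build are not stated in the labels or files used here.

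In poplar and willow, an ancient duplication of the whole genome left most chromosomes with a partner that carries related genes in a similar order, and chromosomes 13 and 19 form such a pair. Chromosome 19 of Populus trichocarpa also carries the sex-determining region, toward an end of the chromosome, where males and females differ in sequence. The position of that region in the coordinates of these lists was not used here. ChIP-seq compares the number of DNA fragments pulled down at a site with the number in unselected chromatin, and their ratio, the fold, is the authors' own value throughout. Genes are not named, because the coordinates of the gene table at hand were not shown to fit these lists. No DNA sequence of the regions is shown, as no genome was used.

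The lists held 6536, 10759 and 9255 peaks in replicates 1, 2 and 3. Read totals per sample are unknown. A median peak rested on 44, 38 and 50 IP reads over its summit in replicates 1, 2 and 3, as recovered from the fold and p of each peak. Replicate 1 gave the fewest peaks on both chromosomes as well as in total.

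With the crowded stretch of chromosome 13 left out, both chromosomes had few peaks per Mb for the series, and chromosome 19 fewer than its partner. No genome was used, so the length of each chromosome on which reads can be placed is not known. Replicates 1, 2 and 3 listed 113, 162 and 160 peaks on chromosome 19, and 221, 329 and 312 on chromosome 13. Chromosome 13 had the larger number in every list. Divided by the length up to the last peak, 15.9 Mb and 16.1 Mb, this was 7.13, 10.2 and 10.1 peaks per Mb on chromosome 19 and 13.7, 20.4 and 19.4 on chromosome 13. Means were 9.14 ± 1.75 and 17.9 ± 3.6 peaks per Mb (SD, n = 3), and the value of chromosome 13 was 1.93, 2.00 and 1.92 times that of chromosome 19, which averages 1.95 ± 0.044 (SD, n = 3). The ratio varied far less between lists than the densities did. A 2-sided exact sign-flip permutation test of the difference within lists gave p = 0.25, the smallest that 3 lists allow, and 0.375 after Benjamini-Hochberg adjustment over 3 comparisons (density, fold and width). The p therefore cannot pass 0.05 in this design.

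Shared regions showed the same contrast, with 4.60 per Mb on chromosome 19 and 8.64 per Mb on chromosome 13. All 19 chromosomes together had 10.6 per Mb. With the crowded stretch kept, chromosome 13 had 182 shared regions. Their density was then 2.44 times that of chromosome 19, and above that of all chromosomes together. Chromosome 19 had the lowest density of peaks among 19 chromosomes in each of the 3 lists. Next above it came chromosome 17, with 9.71, 15.6 and 14.7 peaks per Mb in replicates 1, 2 and 3, so that the order of these neighbours held within every list although their means of 9.14 ± 1.75 and 13.3 ± 3.2 (SD, n = 3) differ by less than their summed SDs. Chromosome 13 was the fourth lowest in every list with its crowded stretch left out. No stretch was left out on the other chromosomes. With that stretch kept, at 271, 390 and 356 peaks in replicates 1, 2 and 3, chromosome 13 would rank higher in every list. On the 17 chromosomes outside the pair, the mean over lists ran from 13.3 to 34.9 peaks per Mb.

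**Figure D1:**
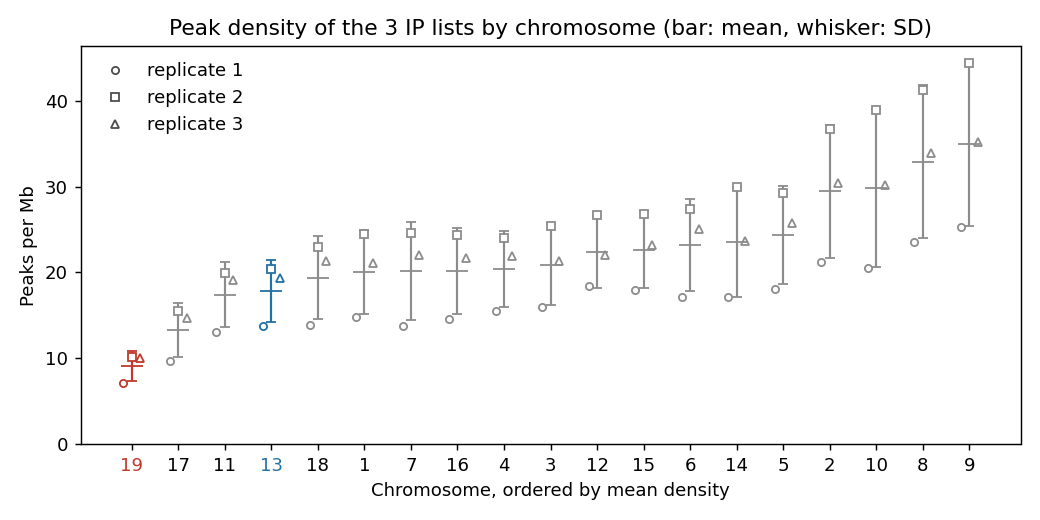
Peaks per Mb (y axis) on each of 19 chromosomes (x axis, ordered by mean), with open symbols for the 3 replicate lists, a bar for the mean and whiskers for the SD. Chromosome 19 lies lowest, at 9.14 ± 1.75, and chromosome 13, with its crowded stretch left out, at rank 4 from below, at 17.9 ± 3.6.

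The share of sites that recurred was close on both chromosomes. Of 223 merged regions on chromosome 19, 73 were shared, which is 32.7% (exact 95% interval 26.6% to 39.3%), and of 423 on chromosome 13, 139 were, which is 32.9% (28.4% to 37.6%). Both lie near the 31.3% of all merged regions in the series. The intervals cover counting error only. Regions with peaks of 2 lists numbered 48 and 95, and regions of a single list 102 and 189, on chromosomes 19 and 13. Of the single-list regions on chromosome 19, 14 came from replicate 1, 47 from replicate 2 and 41 from replicate 3. On chromosome 13 these numbers were 21, 85 and 83. Replicate 1 supplied the fewest on both.

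Along chromosome 19, every window of 1 Mb held a shared region, but these were not evenly spread. Members per Mb were 5.67 in the first 3 windows, 3.30 in those between and 8.05 in the last 3. This division was chosen after the values were seen. Windows 1 and 2 held only 3 and 2 members, so the value of the first 3 rested mostly on the third, with 12. The 16 windows of 1 Mb on chromosome 19 held between 1 and 12 members, with a median of 4, and 8 of the windows held 1 to 3. The fullest window ran from 2000001 to 3000000 with 12 members, and its peaks numbered 14, 16 and 13 in replicates 1, 2 and 3. Next came the windows from 14000001 to 15000000, with 8 members and 11, 17 and 16 peaks, and from 15000001 to the last peak at 15856769, with 8 members and 13, 21 and 20 peaks. Of the 12 members of the fullest window, 4 lay where the input was high, a class described further on, so that the other 8 equal the counts of the next windows.

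Chromosome 13 was fuller toward both ends, with 16.3 members per Mb in its first 3 and in its last 3 windows. Those between were uneven and held 5.09 per Mb. Its 17 windows held 0 to 24 members, with a median of 8, and 5 held at least 10. From 15000001 to 16000000 there were 24 members, with 32, 55 and 46 peaks in replicates 1, 2 and 3. The first window, from 1 to 1000000, had 20 members and 37, 51 and 53 peaks. Then followed the window from 1000001 to 2000000 with 18 members and 23, 45 and 36 peaks. Between the ends, the window from 5000001 to 6000000 also held 14 members, with 20, 27 and 22 peaks, and that from 12000001 to 13000000 held 8. The 3 fullest windows held 44.6% of the members on chromosome 13, while the 3 fullest of chromosome 19 held 38.4% of its members.

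**Figure D2:**
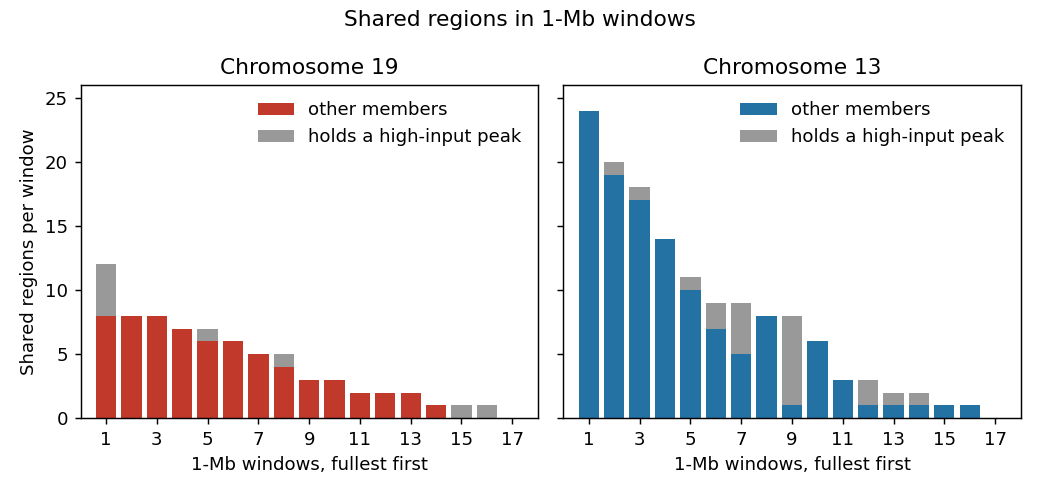
Shared regions in each 1-Mb window (y axis), with windows ordered from the fullest (x axis), for chromosomes 19 and 13; grey marks regions that hold a high-input peak. The fullest window holds 12 on chromosome 19 and 24 on chromosome 13, and 1 window of chromosome 13 is empty.

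With the crowded stretch of chromosome 13 left out, the gap between the chromosomes was widest over their first 3 windows, a division chosen after the values were seen. There chromosome 19 had 7.67, 9.67 and 9.00 peaks per Mb in replicates 1, 2 and 3, and chromosome 13 had 26.7, 40.3 and 37.3. The ratio was 3.48, 4.17 and 4.15, a mean of 3.93 ± 0.39 (SD, n = 3). Over the last 3 windows it was 1.92, 1.93 and 1.62 (mean 1.82 ± 0.18), and over the windows between 1.53, 1.52 and 1.57 (mean 1.54 ± 0.028, SD, n = 3 each). In every list the ratio of the first 3 windows was above those of the other stretches, and these do not overlap with it. This separation depends on the rule, because the crowded stretch lies within the last 3 windows of chromosome 13. With it kept, the ratio over the last 3 windows would be higher in every list, and in replicate 1 above that of the first 3. Members numbered 17 against 49 in the first 3 windows, 33 against 56 between, and 23 against 34 in the last 3, on chromosomes 19 and 13. The chromosomes were not aligned to each other, so which ends correspond is not given by this comparison.

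Spacing largely restates the contrast in number, since fewer members on a similar length leave longer gaps. The median distance between neighbouring members was 70.7 kb over 72 gaps on chromosome 19 and 34.0 kb over 138 gaps on chromosome 13. Gaps longer than 500 kb numbered 13 on chromosome 19 and took up 9.93 Mb, which is 62.6% of its length. On chromosome 13 there were 6, taking up 5.69 Mb or 35.4%. Long stretches with no site common to the lists thus made up more of chromosome 19, though the longest single gap was on chromosome 13. That last order turns when regions with a high-input peak, described further on, are left out, to 2.93 Mb on chromosome 19 against 1.97 Mb on chromosome 13.

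**Figure D3:**
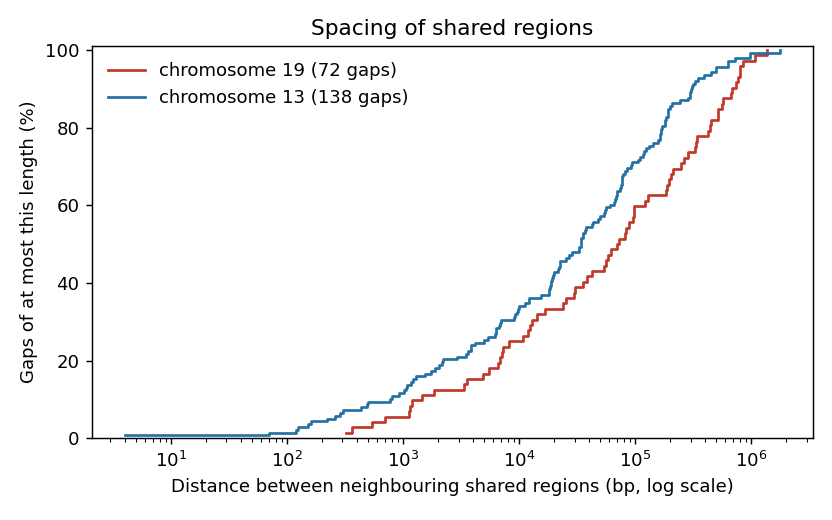
Share of gaps between neighbouring shared regions (y axis, %) that are at most as long as the distance on the x axis (bp, log scale), for 72 gaps on chromosome 19 and 138 on chromosome 13. The median is 70.7 kb on chromosome 19 and 34.0 kb on chromosome 13.

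The longest stretch without a member on chromosome 19 ran from 5546463 to 6901704, over 1.36 Mb, and held 2, 3 and 1 peaks of replicates 1, 2 and 3. The next, from 410429 to 1492526 over 1.08 Mb, held 1, 4 and 3 peaks, and 0.796 Mb of it was free of peaks in every list. The third ran from 13648728 to 14505084 over 0.856 Mb, with 0, 4 and 2 peaks. None of these stretches was free of peaks in all lists, and a peak missing from a list is not shown to be absent at this depth.

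On chromosome 13 the longest stretch ran from 7830350 to 9591475, over 1.76 Mb, with 1, 1 and 3 peaks in replicates 1, 2 and 3. Within it, 1.38 Mb from 8213656 held no peak of any list. Shorter stretches ran from 6731450 to 7705329 (0.974 Mb, with 2, 1 and 3 peaks) and from 10175627 to 11148551 (0.973 Mb, with 0, 3 and 1 peaks). All 3 lie in the middle part of the chromosome. The window from 8000001 to 9000000 was the only one of either chromosome with no member, against 13 empty windows of 401 over all 19 chromosomes.

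Another member within 5 kb was found for 20 of 73 members on chromosome 19 (27.4%, exact 95% interval 17.6% to 39.1%). On chromosome 13 it was 54 of 139 (38.8%, 30.7% to 47.5%), and over the shared regions of all chromosomes 39.3%. The difference between the chromosomes was not tested and the intervals overlap. Runs of 3 or more members less than 5 kb apart numbered 3 on chromosome 19 and 9 on chromosome 13. The longest on chromosome 19 had 4 members, from 2112456 to 2119809, with mean folds of 2.75 to 4.66. On chromosome 13 a run of 6 members lay between 5264438 and 5278070, with mean folds of 2.76 to 3.76. These runs were picked after their values were seen.

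At the shared regions, the median height of enrichment over all members was close on both chromosomes. The median fold over members was 3.06, 3.47 and 3.31 in replicates 1, 2 and 3 on chromosome 19, and 3.05, 3.37 and 3.29 on chromosome 13. Means over the lists were 3.28 ± 0.21 and 3.24 ± 0.17 (SD, n = 3). The difference of chromosome 19 minus chromosome 13 was 0.0418 ± 0.0525 in fold (SD, n = 3), smaller than its spread over the lists, and positive in 3 of 3 lists (2-sided exact sign-flip permutation p = 0.25, the smallest possible, and 0.375 after adjustment). Its sign was not stable. Without high-input peaks it was -0.0404 ± 0.0646, positive in 1 of 3 lists, and with the mean over members in place of the median it was -0.0534. Among members with a −log10 q of at least 10 it was -0.394, with chromosome 13 higher in all 3 lists (exact sign-flip permutation p = 0.25, the smallest possible). The medians were thus less close among these 24 and 40 members of chromosomes 19 and 13. They were chosen by q, which rests on the same heights as the fold, so no conclusion on strong sites is drawn. Over 12 alternatives the sign turned in 6.

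The median of the mean folds over the 3 lists was 3.24 on chromosome 19 and 3.27 on chromosome 13, against 3.35 over all 4225 shared regions. Among 19 chromosomes that of chromosome 19 was the lowest, just under the range of 3.25 to 3.57 on the other 17, and that of chromosome 13 was the fourth lowest. Mean folds of at least 5 were reached by 6 of 73 members on chromosome 19 (8.22%) and 14 of 139 on chromosome 13 (10.1%), against 11.0% of all shared regions. Both shares lie near that background. A −log10 q of at least 20 in every list was reached by 6 members on chromosome 19 (8.22%) and 13 on chromosome 13 (9.35%), where the background is 10.8%.

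The highest member on chromosome 19 lay from 2406900 to 2407465, with folds of 6.96, 5.53 and 6.66 in replicates 1, 2 and 3 (mean 6.38 ± 0.76, SD, n = 3). It rested on 79, 65 and 97 IP reads over expected heights of 10.5, 10.9 and 13.7, and stood alone, 69250 bp from the nearest member. The second, from 14616882 to 14617943, had folds of 6.20, 5.93 and 6.53 (mean 6.22 ± 0.30) and the third, from 13092682 to 13093660, had 5.82, 6.15 and 5.52 (mean 5.83 ± 0.31). These regions were chosen for their height, and the differences of their means from each other lay within the spread of the highest.

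Ranks 4 and 6 on chromosome 19 were neighbours. The regions from 14590933 to 14591506 (folds 5.41, 4.86 and 6.68, mean 5.65 ± 0.93) and from 14589110 to 14589778 (folds 4.86, 5.40 and 4.93, mean 5.07 ± 0.30) lay 1154 bp apart. With the second-highest member, they put 3 of the 6 highest sites within the same 1-Mb window. The region from 13164440 to 13165252 had folds of 5.22, 7.37 and 4.06 (mean 5.55 ± 1.68), the largest SD of these 6, with replicate 2 highest. It is the fifth in rank.

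On chromosome 13 the highest member lay from 2852548 to 2853093, with folds of 7.74, 11.5 and 7.66 in replicates 1, 2 and 3 (mean 8.96 ± 2.19, SD, n = 3). Its IP heights were 88, 89 and 97 reads, where the median peak of each list had 44, 38 and 50. The expected heights were 10.5, 6.84 and 11.8, against list medians of 13.8, 11.3 and 16.0. Relative to its list, replicate 2 thus had both the highest IP height and the lowest expected height of the 3. The third highest, from 2845239 to 2845528, lay 7019 bp away with folds of 6.56, 6.17 and 6.71 (mean 6.48 ± 0.28), and is narrow for its height, at 290 bp. Adjoining regions from 1101913 to 1102704 (folds 6.65, 6.14 and 5.93, mean 6.24 ± 0.37) and from 1102709 to 1104622 (folds 7.53, 6.27 and 6.93, mean 6.91 ± 0.63) are separated by 4 bp, and hold ranks 4 and 2. They are separate regions only because no peak of any list bridged those 4 bp.

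The fifth, from 15793587 to 15794457, had folds of 6.02, 5.96 and 6.01 (mean 6.0 ± 0.031), and the sixth, from 1918372 to 1918997, had 5.55, 6.65 and 5.41 (mean 5.87 ± 0.68). The 3 lists were almost level at the fifth. Of the 6 highest on chromosome 13, 5 lay in its first 3 Mb and the other near its far end. Every one of the 6 had a higher mean than the member of the same rank on chromosome 19, with the gap largest at the first rank, where it is smaller than the summed SDs of 2.19 and 0.76. Chromosome 13 also had more members to draw its highest from.

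**Figure D4:**
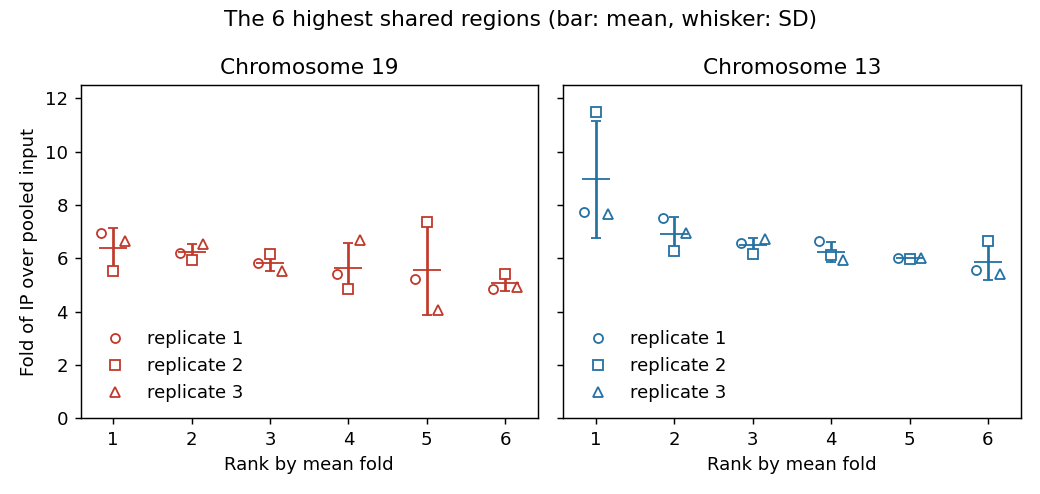
Fold of IP over pooled input (y axis) for the 6 highest shared regions of chromosomes 19 and 13, by rank (x axis); symbols are the 3 lists, bars the mean and whiskers the SD. Means run from 6.38 to 5.07 on chromosome 19 and from 8.96 to 5.87 on chromosome 13.

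Peak widths overlapped between the chromosomes. The shortest peak was 113, 97 and 126 bp in replicates 1, 2 and 3, so widths were compared within lists. The median width of member peaks was 284, 257 and 373 bp in replicates 1, 2 and 3 on chromosome 19, and 246, 261 and 359 bp on chromosome 13. Chromosome 19 was wider in 2 of 3 lists. The difference was 16 ± 21.1 bp (SD, n = 3; 2-sided exact sign-flip permutation p = 0.50, also after adjustment). This direction was not stable either, as it turned under 4 of 12 alternatives, among them -31 bp when peaks had to overlap by 50% of both, where chromosome 13 was wider in all 3 lists, and -3.67 bp without high-input peaks. Median widths of the merged regions were 438 bp and 441 bp, against 478 bp over all shared regions. On 17 other chromosomes this median ran from 434.5 to 507 bp, so both chromosomes lay near its lower end.

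Regions at least 1 kb wide numbered 3 of 73 on chromosome 19 (4.11%) and 9 of 139 on chromosome 13 (6.47%), against 6.89% of all shared regions. The widest on chromosome 19 were 1375 bp, from 10049444 to 10050818, and 1145 bp, from 9042192 to 9043336. They had moderate folds of 3.76, 3.66 and 3.56 (mean 3.66 ± 0.10), and 3.99, 3.59 and 4.64 (mean 4.07 ± 0.53). The first was built of 2, 4 and 2 peaks in replicates 1, 2 and 3, and the strongest of these was 649, 187 and 217 bp wide. On chromosome 13 the widest was the 1914 bp region at 1102709, which replicate 2 covered with 1 peak of 1874 bp and replicates 1 and 3 with 3 peaks each. It was followed by 1638 bp from 5303196 to 5304833, with folds of 4.17, 5.26 and 5.77 (mean 5.07 ± 0.82). Regions with more than 1 peak in some list were 11 of 73 (15.1%, exact 95% interval 7.77% to 25.4%) on chromosome 19 and 40 of 139 (28.8%, 21.4% to 37.1%) on chromosome 13. The background is 27.5%, which lies above the interval of chromosome 19, though the intervals of the chromosomes overlap and their difference was not tested.

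Over all members of each chromosome, wider peaks tended to be higher. Spearman's rho between fold and width across members was 0.73, 0.50 and 0.71 in replicates 1, 2 and 3 on chromosome 19 (73 members), and 0.50, 0.48 and 0.60 on chromosome 13 (139 members). The 20 high-input members of chromosome 13 went the other way, with rho of -0.08, -0.29 and -0.58. The 8 high-input members of chromosome 19 did not, with rho of 0.57, 0.05 and 0.64. The members share libraries and control, and a higher peak passes the threshold over more positions, so this is a description only.

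**Figure D5:**
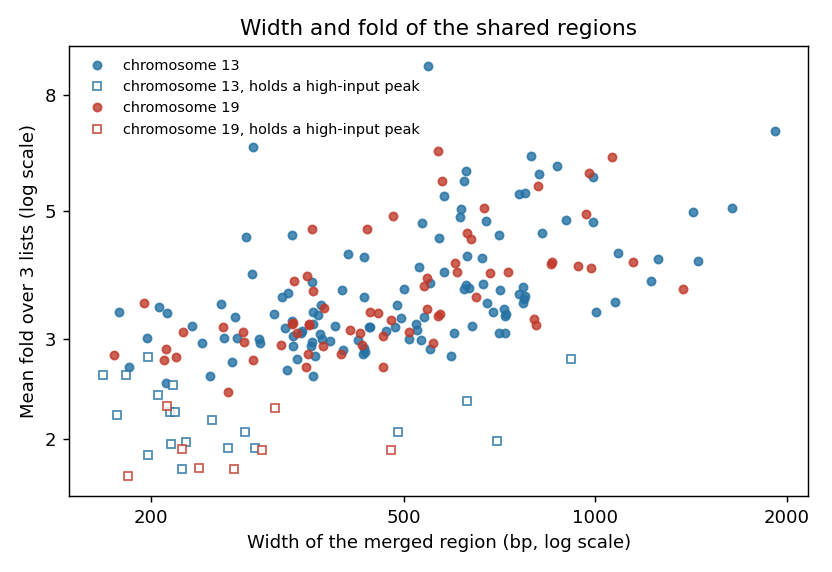
Mean fold over the 3 lists (y axis, log scale) against the width of the merged region (x axis, bp, log scale) for 73 shared regions on chromosome 19 and 139 on chromosome 13; open squares hold a high-input peak. Red and blue points overlap, and most high-input regions lie lowest, with median mean folds of 1.92 on chromosome 19 and 2.18 on chromosome 13.

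A minority of members lay where the input itself was high. A peak was called high-input when its recovered expected height was at least 4 times the lowest in its list. Such a peak was held by 8 members on chromosome 19 (11.0%, exact 95% interval 4.85% to 20.5%) and 20 on chromosome 13 (14.4%, 9.02% to 21.3%). Over all shared regions it was 9.25%, which counts the stretch left out (43 of 43) and the scaffolds (19 of 31). On the 17 other chromosomes the share ran from 2.15% to 16.6%, with a median of 6.63%, so chromosome 13 lay in the upper part of that range. The mean folds of the 8 ran from 1.73 to 2.29, below every other member of chromosome 19, whose lowest was 2.42. Those of the 20 on chromosome 13 ran from 1.78 to 2.78. At a fixed p, a smaller fold passes where the expected height is larger, and the part of the calling in this difference was not tested.

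Some of these regions stood in stretches with no other member. On chromosome 19, 2 of them stood alone between 4745655 and 7677109, a stretch of 2.93 Mb with no other member. The region from 5545986 to 5546462 had folds of 1.80, 2.17 and 1.79, and that from 6901705 to 6902018 had 2.1, 2.54 and 2.16, in replicates 1, 2 and 3. Their expected heights were 73.5, 58.5 and 84.5 at the first, and 60.8, 50.9 and 65.1 at the second, where the median member of the chromosome had 14.0, 11.3 and 16.3. A run of 3 high-input regions lay between 2022239 and 2023647, with mean folds of 1.73 to 1.92. On chromosome 13 a run of 6, from 9591476 to 9595481, closed the longest empty stretch, with mean folds of 1.98 to 2.49. Outside the class, that stretch ran from 7705962 to 9673007, over 1.97 Mb, and held 1, 2 and 4 peaks outside the class.

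Without high-input peaks the contrast in number was little changed. Chromosome 19 then had 6.50, 9.46 and 9.59 peaks per Mb in replicates 1, 2 and 3, and chromosome 13 had 12.3, 18.3 and 18.1, with 65 and 119 shared regions. Chromosome 13 was higher in 3 of 3 lists (2-sided exact sign-flip permutation p = 0.25, the smallest possible). Windows with no shared region were then 2 of 16 on chromosome 19 and 1 of 17 on chromosome 13.

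Agreement between lists on these chromosomes was close to that over the whole series. The SD of the fold over the 3 lists, as a share of its mean, had a median of 10.3% on chromosome 19, 11.0% on chromosome 13 and 10.7% over all shared regions. The 3 summits fell inside 100 bp at 41 of 73 members (56.2%) and 79 of 139 (56.8%), near the background of 52.0%. Replicate 2 gave the highest fold at 41 of 73 and 68 of 139 members, 56.2% and 48.9%, where the background is 52.7%. Across members, Spearman's rho of fold between pairs of lists was 0.76 to 0.86 on chromosome 19 (73 members) and 0.74 to 0.79 on chromosome 13 (139 members), and all lists share 1 control.

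The least steady member on chromosome 19 lay from 14505085 to 14505279, with folds of 2.57, 4.99 and 2.81 (mean 3.46 ± 1.33, SD, n = 3). Its IP heights were 37, 54 and 51 reads, highest in replicate 2 although that list has the lowest heights in general. On chromosome 13 it was the region from 285986 to 286902, with folds of 3.95, 2.53 and 1.81 (mean 2.76 ± 1.09). There the strongest peak of replicate 1 had an expected height of 18.2 while those of replicates 2 and 3 had 59.5 and 78.4, and the summits lay 456 bp apart, so the lists did not measure the same point.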

How the data were processed

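Per the labels' protocols, formaldehyde at 1% fixed the cambium, shearing gave pieces of 200 to 1000 bp, and libraries were made from 20 ng of DNA with a selected size near 200 bp and 9 cycles of PCR. Tools named in the submitters' processing notes are MACS2 2.1.0, Bowtie2 2.3.5, deepTools 3.5.1 and Trimmomatic 0.33. The build, the threshold and the handling of duplicates were not given in the sources used here. Deposited lists hold, per peak, a fold (ratio of IP over pooled input), a −log10 p, a −log10 q and a score, which are the authors' values, read by the layout of the caller's output. Every list was called against the same pooled input, so the lists are not independent.

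Positions are counted from 1. Peaks of the 3 lists were merged at 1 bp of overlap, and a region's fold and width in a list are those of its peak with the highest −log10 p. Whole-number IP heights and expected heights were solved from fold and p taking MACS2's 1 added to both heights and a Poisson tail, to within 1e-04, which succeeded for 99.95%, 100% and 99.92% of peaks in replicates 1, 2 and 3. Density is the count over the position of the last peak, less the stretch left out on chromosome 13. Values per list were compared between chromosomes by exact sign-flip permutation within lists, as both chromosomes come from the same library. Python 3.11.15, pandas 2.3.3 and scipy 1.17.1 were used, and the steps were tested on simulated data. No genome was used. On 9 of 19 chromosomes peaks were found over 100 kb beyond the final protein-coding gene of the table at hand (P.trichocarpa_v4.1). The distance was 287 kb on chromosome 19 and 535 kb on chromosome 13. The coordinates of that table were therefore not used, and whether the builds differ was not tested. Named are, on each chromosome, the 6 highest members, the 2 widest, that with the largest SD relative to its mean, the 3 fullest windows and the 3 longest stretches. Members and rules were chosen with earlier results of these data known.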

Additional observations from a re-analysis of the deposited data

How the results depend on the processing

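The order of the chromosomes in peaks per Mb held under all 10 alternatives tried, and the ratio of shared-region densities, 1.88, was 1.64 to 2.44 under 11. Requiring a −log10 q of at least 10 left 24 and 40 shared regions on chromosomes 19 and 13 and raised the share of empty windows from 0% to 37.5% and from 5.88% to 29.4%. An overlap of 50% of both peaks left 43 and 73, and summits within 100 bp left 41 and 79. Without 1 replicate, where shared means the other 2 lists, counts were 77 to 99 and 161 to 195. The share of empty windows was 21.9% on chromosome 19 with 500-kb windows and 0% on chromosome 13 with 2-Mb windows. The longest stretch on chromosome 19 was 2.93 Mb without high-input peaks and 0.796 Mb between peaks of any list. The difference in fold between the chromosomes, 0.0418, turned to -0.394 at a −log10 q of 10, -0.000697 with the 50% overlap, -0.0466 with equal peak numbers, -0.0404 without high-input peaks and -0.0534 as a mean, and ran from -0.0664 to 0.0815 when 1 replicate was left out, with the negative value without replicate 2. The difference in width, 16 bp, turned to -31 bp with the 50% overlap, -3.67 bp without high-input peaks, -5.40 bp as a mean and -3 bp for merged regions, and was 17 to 34 bp without 1 replicate. For these shifts, the cause was not tested. Leaving out 1 replicate moved the difference in peaks per Mb, -8.72, to between -9.77 and -7.96, and the ratio of densities to between 1.79 and 2.06. Without the added count of 1, 7 of 17 named regions moved by more than their SD, all upward, a direction that arithmetic fixes for any fold above 1. With no replicate block, that is without pairing by list, p was 0.10 for density, the smallest possible, 0.70 for fold and 0.60 for width (exact permutation). Between IP and input, no paired analysis was possible because all IP lists share 1 pool of input; the comparisons between chromosomes are paired by list. Counting members under 5 kb apart as 1, and equal peak numbers without high-input peaks, were chosen after seeing the data, and gave a ratio of 1.68 and a difference of -5.44 peaks per Mb.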

Other observations

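The stretch of chromosome 13 that the rule leaves out, from 14750000 to 14890000, held 43 shared regions, all of which held a high-input peak. Their mean folds ran from 2.15 to 3.34 with a median of 2.66. The median expected height there was 59.0, 51.6 and 64.7 in replicates 1, 2 and 3, against 14.0, 11.3 and 16.0 at the 139 members of the chromosome. With the stretch kept, chromosome 13 had 182 shared regions. Scaffolds outside the chromosomes held 31 shared regions, 19 of them with a high-input peak.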
